A study of Mus musculus with 147 samples.

Results

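Mouse primordial germ cells (PGCs), the founders of eggs and sperm, were compared at E11.5 and at E10.5, the step at which they complete their migration and occupy the gonad. The cells were chosen by their deposited names and by depth. Wild-type cells named for the BVSC gate at either time-point were kept when they had more than 2000 detected genes and 10000 to 1000000 transcripts, counted as unique molecular identifiers (UMIs). The filter left 455 of 464 such cells, out of 13032 cells in the series. Germ cells carried 2 fluorescent reporter transgenes, *Prdm1*-mVenus (*Blimp1*-mVenus) and *Dppa3*-ECFP (*Stella*-ECFP), which together give the name BVSC, and came from crosses of C57BL/6 females with transgenic males. All cells of both time-points carried the reporters and were sorted on them, so the levels of *Prdm1* and *Dppa3* were tied to the gate. Cells of E10.5 were sorted from digested whole embryos and cells of E11.5 from dissected gonads. Embryonic day and dissected tissue therefore cannot be told apart, and the names do not say which E10.5 cells had already arrived at the genital ridge. Embryos were pooled, and a replicate is one such pool. There were 3 pools at E10.5 with 92, 94 and 118 cells and 2 pools at E11.5 with 79 and 72 cells. No treatment was given.

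PGCs arise in the early embryo, travel through the hindgut and its mesentery, and settle in the genital ridges, where they go on dividing before the male and female fates part. On the way their genome loses most of its DNA methylation. A set of germline genes carries CpG-rich promoters that DNA methylation keeps silent in somatic cells. These genes, among them the RNA-binding factors *Dazl* and *Ddx4* and several piRNA and meiotic genes, are classically switched on in the gonad. PGCs are also known for shifts in energy metabolism as they mature. The comparison addresses which of these programmes differ between germ cells of E10.5 and of E11.5.

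Promoters of the germline genes are shown first, because 6 of the 12 genes higher at E11.5 are among them. They are the 250 bases before the start of 5 of them, as annotated by RefSeq on GRCm38.p6. Each sequence is given 5′ to 3′ on the strand of the gene, and capitals mark CACGTG, a palindromic E-box, and TCCCGC or its reverse complement GCGGGA, the core of a motif bound by E2F6. The *Dazl* window lies at chr17:50293621-50293870 on the minus strand, that of *Hormad1* at chr3:95559427-95559676 on the plus strand and that of *Stk31* at chr6:49395354-49395603 on the plus strand. Those of *Asz1* and *Rpl10l* lie at chr6:18109062-18109311 and chr12:66284402-66284651, both on the minus strand.
Dazl: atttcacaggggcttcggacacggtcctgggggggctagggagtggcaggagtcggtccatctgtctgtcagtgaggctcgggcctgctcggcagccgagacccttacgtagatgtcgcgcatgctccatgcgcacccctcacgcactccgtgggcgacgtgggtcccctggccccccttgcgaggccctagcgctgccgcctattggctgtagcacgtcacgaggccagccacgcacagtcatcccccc
Hormad1: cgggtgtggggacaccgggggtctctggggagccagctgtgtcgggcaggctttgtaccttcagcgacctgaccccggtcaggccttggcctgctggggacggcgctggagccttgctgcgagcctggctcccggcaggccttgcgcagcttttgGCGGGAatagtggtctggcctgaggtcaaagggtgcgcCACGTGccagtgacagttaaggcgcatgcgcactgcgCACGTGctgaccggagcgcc
Stk31: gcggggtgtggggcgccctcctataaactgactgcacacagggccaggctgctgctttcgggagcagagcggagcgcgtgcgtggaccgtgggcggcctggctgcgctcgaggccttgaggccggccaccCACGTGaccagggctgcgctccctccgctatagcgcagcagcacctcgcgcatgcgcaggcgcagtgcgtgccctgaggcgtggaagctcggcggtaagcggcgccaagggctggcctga
Asz1: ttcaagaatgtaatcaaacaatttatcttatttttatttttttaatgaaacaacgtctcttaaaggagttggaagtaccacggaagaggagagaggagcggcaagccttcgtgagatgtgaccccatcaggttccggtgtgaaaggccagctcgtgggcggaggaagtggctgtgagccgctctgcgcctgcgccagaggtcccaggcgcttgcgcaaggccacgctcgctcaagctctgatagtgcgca
Rpl10l: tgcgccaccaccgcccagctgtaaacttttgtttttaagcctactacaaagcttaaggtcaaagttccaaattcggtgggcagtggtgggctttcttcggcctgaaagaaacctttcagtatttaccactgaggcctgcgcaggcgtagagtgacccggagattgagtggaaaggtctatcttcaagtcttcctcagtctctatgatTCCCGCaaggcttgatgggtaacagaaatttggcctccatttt
The *Hormad1* window held 2 copies of CACGTG and the *Stk31* window 1 copy, while the windows of *Dazl*, *Asz1* and *Rpl10l* held none. The window of *Ddx4*, not shown, held 1 copy of CACGTG and 1 of GCGGGA. The bases after its annotated start were not found in a transcript of the gene. Over the 16 listed germline genes, all with a promoter in the table, 12 (75%) held CACGTG in these 250 bases. Listed genes that were not called held it too, among them *Mael*, *Mov10l1*, *Fkbp6*, *Slc25a31* and *Sycp1*, so the share does not set the called genes apart. The same letters stood in 8.19% of the 11556 promoters of tested genes and in 6.04% of all 27025 promoters of the table. With the 50 bases after the start included, the shares were again 12 of 16 and 9.93% of tested genes. TCCCGC, read on both strands, stood in 5 of the 16 windows (31.3%) and in 29.2% of the promoters of tested genes. For genes of glycolysis, 2 of 16 promoters held CACGTG. These are matches of letters, with no measurement of binding.

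The pools were deep. They held between 24750343 and 32172020 UMIs, and the median cell had 309638 ± 31671 UMIs at E10.5 (SD, n = 3) and 346795 ± 34397 at E11.5 (SD, n = 2) (exact permutation test, two-sided, p = 0.5, where 3 against 2 pools cannot go below 0.1). The 10 germ cell markers, of which *Dppa3* is also a gate reporter, summed to between 3672 and 4152 CPM (UMIs per 1000000 UMIs of the pool) in the 5 pools, and to 682 and 971 CPM in the 2 pools of E11.5 cells sorted outside the gate. At least 3 of the 6 germ cell genes *Dppa3*, *Pou5f1*, *Prdm14*, *Nanos3*, *Dnd1* and *Tfap2c* were detected in all but 1 of the 455 cells, but also in 29 of 30 and 20 of 23 cells outside the gate, so detection alone does not separate the populations. Correlations between pools, across genes on log2(level + 1), ran from 0.954 to 0.975. Over the 5 pools 96 distinct cell barcodes occurred, each in at least 2 pools, and no 2 cells had identical counts.

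A pair of features set E10.5 pools apart and touch the comparison. First, the study's methods state that embryos of both time-points were picked as male by PCR, whereas the names call only E10.5 replicate 3 and the E11.5 pools male. The Y-linked genes *Ddx3y*, *Eif2s3y*, *Kdm5d* and *Uty* summed to 5.44, 1.71 and 180 CPM in the 3 pools of E10.5 and to 300.0 and 306 in those of E11.5. At least 1 UMI of these 4 genes was found in 28 of 92 and 37 of 94 cells of E10.5 replicates 1 and 2. In replicate 3 it was 115 of 118 cells. All Y-linked genes took 0.0449%, 0.0185% and 0.0498% of UMIs at E10.5 and 0.0578% and 0.0546% at E11.5. *Xist* was found in 43.5%, 35.1% and 42.4% of cells at E10.5 and in 24.1% and 11.1% at E11.5. The comparison with all 5 pools may thus be in part one between sexes, which was not tested. The median cell held no UMI of the 4 genes in E10.5 replicates 1 and 2, and 27 in replicate 3, against 89 and 89.5 at E11.5. The highest count in a single cell was 64, 4 and 201 in the E10.5 pools and 238 and 322 in those of E11.5. X-linked genes took 3.40%, 3.48% and 3.14% of UMIs at E10.5 and 3.09% and 3.15% at E11.5. Second, the 12 markers of gut and visceral endoderm summed to 59, 48 and 1278 CPM at E10.5 and to 32 in each E11.5 pool. In E10.5 replicate 3, UMIs of *Spink1*, *Ttr* or *Apoa1* were found in 118 of 118 cells, including cells with all germ cell markers, and in 23 of 92 and 33 of 94 cells of replicates 1 and 2. The 10 red blood cell markers summed to 59, 18 and 797 at E10.5 and 32 and 77 at E11.5. UMIs of the embryonic globins *Hba-x*, *Hbb-y* or *Hbb-bh1* were found in 2, 8 and 28 cells of the E10.5 pools. At E11.5 they were found in 4 of 79 cells of replicate 1 and in 72 of 72 of replicate 2, where the median cell held 18.3 CPM. The library names place replicate 1 of both time-points in one number series and replicate 2 of both in another, and replicate 3 has one of its own. Values are therefore given also without replicate 3, and with replicate 3 as the only E10.5 pool; these 2 fits share the E11.5 pools. Sex and the endoderm RNA of replicate 3 cannot be told apart among the E10.5 pools.

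**Figure D1:**
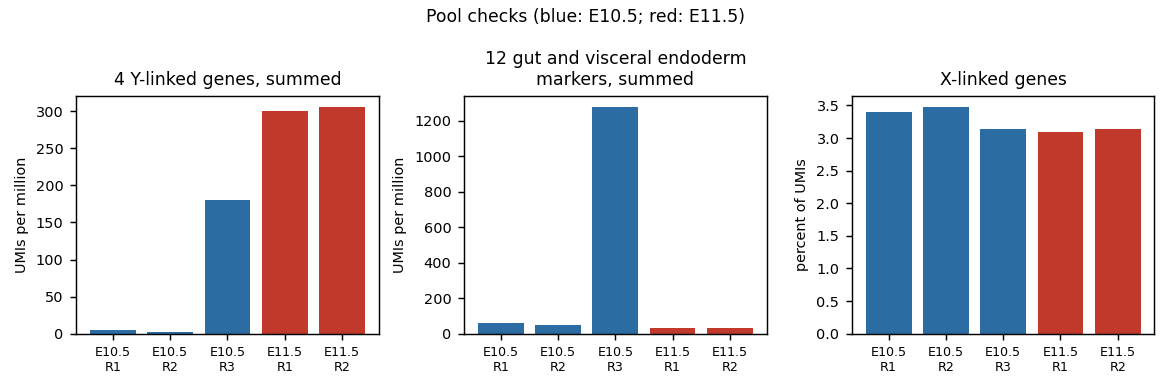
Summed level of 4 Y-linked genes and of 12 gut and visceral endoderm markers (both in CPM) and share of UMIs from X-linked genes (percent), one bar for each pool of E10.5 (blue) and E11.5 (red). E10.5 replicates 1 and 2 have almost no UMIs of the 4 Y-linked genes, and E10.5 replicate 3 alone has a high endoderm sum, 1278 CPM.

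Against this background a small set of genes moved between E10.5 and E11.5. Of 15518 genes tested on summed UMIs, 36 passed a false discovery rate of 0.05 (0.232% of those tested), 12 of them higher at E11.5 (0.0773%) and 24 lower (0.155%). A fold change of at least 2 was shown by 34 of the 36 (0.219% of genes tested), 11 of them higher (0.0709%) and 23 lower (0.148%). The unadjusted p was under 0.05 for 2160 of the 15518 genes, and DESeq2 called 698 of 14595 (4.78%). Counts of either kind for the lists below are to be read beside these totals. None of the 36 had overlapping pools, where 15.7% of all genes tested were higher and 17.1% lower without overlap. Setting replicate 1 against replicate 1 and replicate 2 against replicate 2 could therefore only give the same direction, and is no further support. All 36 also passed when E10.5 replicate 3 was the only E10.5 pool, a fit with 599 calls (3.68%), 274 higher (1.68%) and 325 lower (2%), in which this pool is assumed to vary like the E11.5 pair. Without replicate 3 the fit made 98 calls (0.663%), 43 higher (0.291%) and 55 lower (0.372%), and 35 of the 36 passed, the exception being *Tpm2* (log2 fold change -3.69). The p-values measure the spread between these pools, and most adjusted values lay close to the threshold. Other settings ended most calls. Of the 36 genes, 4 passed with scaling by library total only and 3, none of them higher, in cells with a Y-linked UMI. That filter left 28 and 37 cells in E10.5 replicates 1 and 2, and no cell of replicate 2 held more than 4 such UMIs. The cells it kept are therefore not shown to be male. Of the 36, 14 passed without E10.5 replicate 1 and 3 without E10.5 replicate 2. Without E11.5 replicate 1 no gene passed in edgeR (1308 had an unadjusted p under 0.05), and without E11.5 replicate 2 only 2 did (1569).

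**Figure D2:**
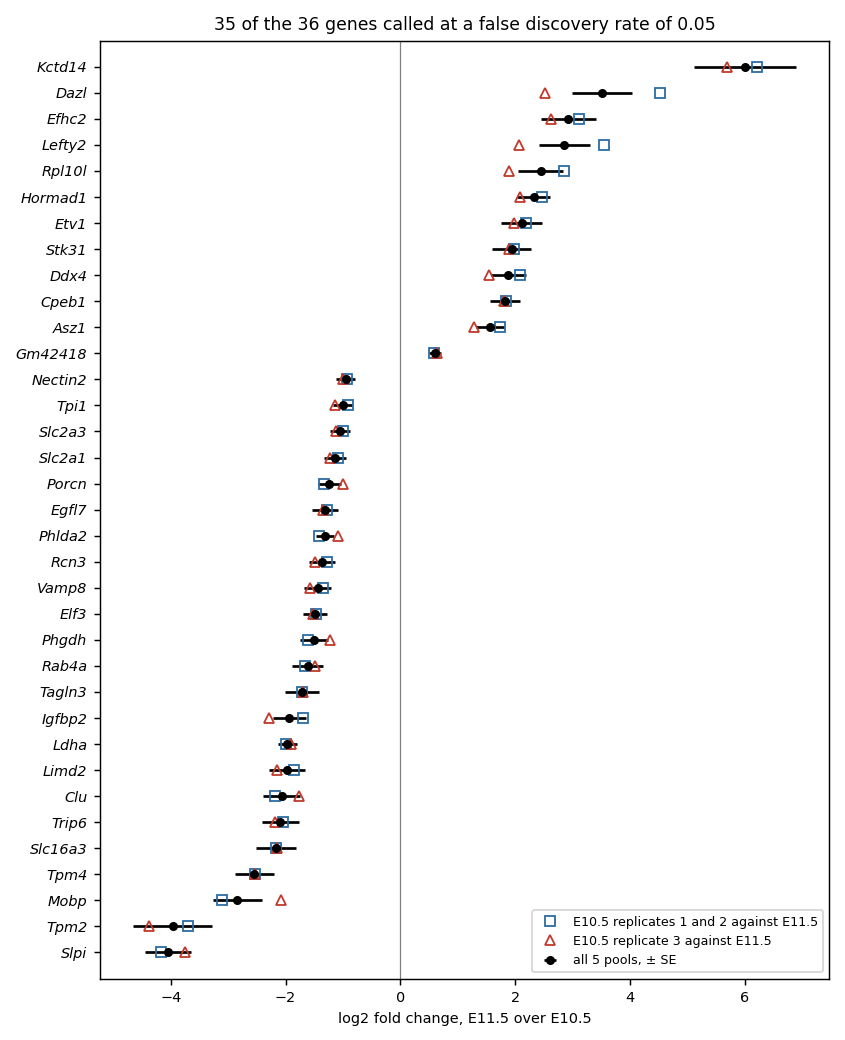
Log2 fold change of E11.5 over E10.5 for 35 of the 36 genes past a false discovery rate of 0.05 (black points, all 5 pools, with SE), beside the fold change with E10.5 replicates 1 and 2 only (blue squares) and with E10.5 replicate 3 only (red triangles). The direction is the same in all 3 for each gene shown, and for *Dazl* the values run from 2.52 to 4.53.

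Of the 12 higher genes, 6 were listed germline genes. *Dazl* (chr17:50279395-50293636), an RNA-binding protein that licenses PGCs for sexual differentiation, stood at 9.93, 14.8 and 50.4 CPM in the 3 pools of E10.5. It reached 335 and 239 CPM at E11.5, so the groups did not overlap, and replicate 3 was the highest of E10.5. The rise was 11.4-fold (log2 fold change 3.51, SE 0.53, edgeR adjusted p = 0.0405). *Ddx4* (chr13:112598333-112652475), the Vasa RNA helicase of germ granules, went from 27.7, 62.6 and 66.4 to 215 and 170 CPM, a 3.67-fold rise (edgeR adjusted p = 0.0411). Both genes continued the trend at the neighbouring time-points. *Dazl* was at 2.39 and 2.71 CPM in the 2 pools of E9.5 and at 608 and 594 in the 2 pools of E12.5. *Ddx4* was at 22.8 and 17.4 at E9.5 and at 328 and 335 at E12.5.

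*Hormad1* (chr3:95559677-95587671), a component of the meiotic chromosome axis, had the lowest adjusted p of the rising genes. It was at 12.8, 21.1 and 22.4 CPM at E10.5 and at 86.9 and 101 at E11.5 (4.99-fold, edgeR adjusted p = 0.018). *Stk31* (chr6:49395604-49469501), which encodes a Tudor domain kinase of germ cells, stood at 20.2, 58.4 and 41.9 and then at 151 and 156 (3.83-fold). *Asz1* (chr6:18050964-18109061), a factor of the piRNA machinery at mitochondria, went from 29.1, 37.8 and 46.6 to 112 in both pools (2.94-fold). *Rpl10l* (chr12:66283379-66284401), an intronless copy of the X-linked ribosomal protein gene *Rpl10*, went from 8.07, 17.6 and 25.02 to 79.8 and 104 (5.45-fold). In none of these did the pools overlap, and replicate 1 was the lowest E10.5 pool in all of them. Replicate 3 was the highest E10.5 pool in all but *Stk31*, as it was for *Dazl* and *Ddx4*. *Rpl10l* is so similar to *Rpl10* that reads could be assigned between the copies, which was not tested.

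These 6 genes were the called members of a list of 16 methylation-silenced germline genes, of which all 16 were tested. Of the list 6 were higher, none was lower and 10 did not pass, and 13 were higher in both E11.5 pools than in all E10.5 pools, beside 15.7% of all genes tested. The median log2 fold change of the list was 1.82, against -0.03 over all genes. With replicates 1 and 2 as the E10.5 pools 9 members were called, and with replicate 3 alone 8 were called, the median being 2.16 and 1.21. *Mael* shows the gap between E10.5 pools, at 2.77, 7.05 and 25.8 CPM against 37.0 and 49.8 at E11.5 (edgeR adjusted p = 0.261). Its log2 fold change was 3.15 without replicate 3 and 0.77 with replicate 3 alone, and it passed in the former. *Sycp1*, which forms the transverse filaments of the synaptonemal complex, was at 3.09, 5.59 and 7.68 and then 34.2 and 14.4, and did not pass (edgeR adjusted p = 0.0996). *Tex101* and *Taf7l* had negative log2 fold changes of -0.02 and -0.69, neither passing. The list overlaps the piRNA and meiotic lists, so the counts below are not separate evidence.

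**Figure D3:**
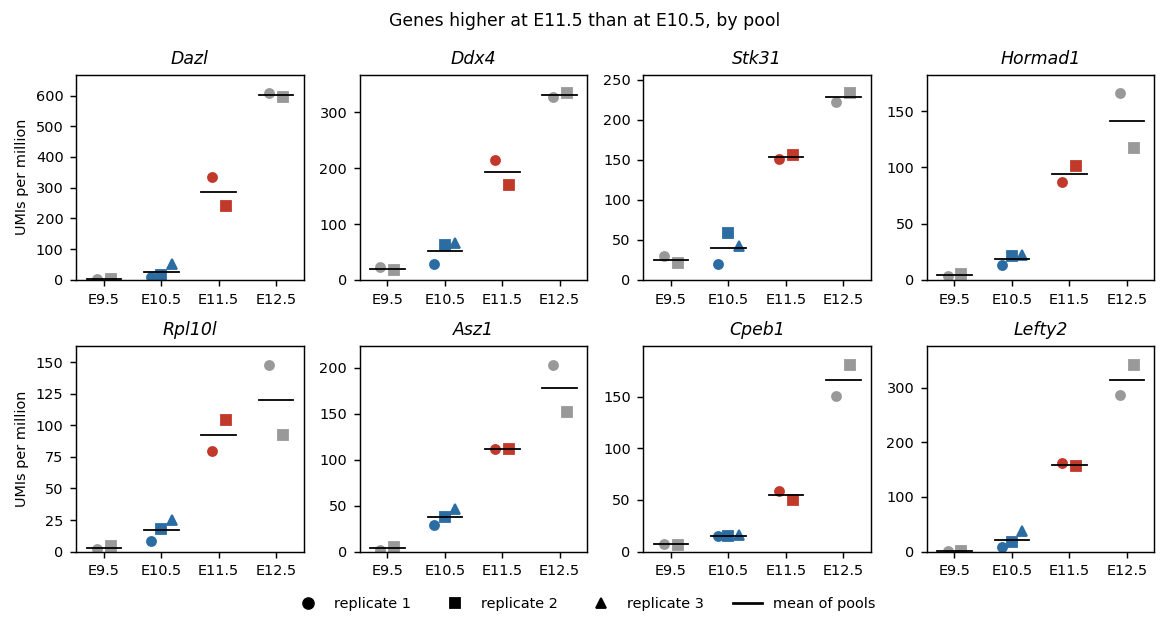
Level in CPM, on axes that start at 0, of 8 genes higher at E11.5, one point for each pool (symbols, replicate number) with the mean of pools as a bar. E10.5 (blue) and E11.5 (red) do not overlap in any of the 8, and each mean is higher still at E12.5 (grey), *Dazl* reaching 608 and 594.

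The share of cells with a transcript moved in the same way for *Dazl* and *Ddx4*. After each cell was thinned to 50000 UMIs, *Dazl* was found in 17.0%, 17.2% and 53.0% of cells of the 3 E10.5 pools and in 94.9% and 94.3% at E11.5, a difference of 65.5 percentage points (exact permutation test, two-sided, p = 0.1, the smallest that 3 against 2 pools allow). Without thinning the shares were 39.1%, 36.2% and 89.8% at E10.5, and every cell of E11.5 replicate 1 and 98.6% of replicate 2 had a UMI, beside 83.3% and 78.3% of cells outside the gate. *Ddx4* was found in 46.6%, 67.7% and 73.9% of thinned cells and then in 98.7% and 98.6%, with 31.0% and 28.6% outside the gate. Its difference was 35.9 percentage points, and 14.3 without thinning. In the 53 E11.5 cells that lay outside the BVSC gate, *Dazl* had a UMI in 44.8% and 42.9% of thinned cells. The E10.5 shares of *Dazl* in replicates 1 and 2 were lower than in these cells, and that of replicate 3 stood slightly above. The cells outside the gate of E11.5 replicate 2 shared a library with its germ cells. How much of their *Dazl* came from those germ cells was not tested, so they give no background level for E10.5. For *Hormad1* the shares were 20.5%, 32.3% and 38.3% against 75.6% and 82.9%, with 3.4% and 19.05% outside the gate.

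The other higher genes covered signalling, RNA regulation and less studied members. *Lefty2* (chr1:180893108-180899103), a secreted inhibitor of Nodal signalling, stood at 9.02, 18.2 and 38.4 CPM at E10.5 and at 162 and 156 at E11.5, a 7.24-fold rise (edgeR adjusted p = 0.0411). Its neighbour and close paralogue *Lefty1* was at 7.37, 12.8 and 36.2 and then at 135 and 102, without passing (edgeR adjusted p = 0.074). The sequences of the pair are alike, so reads could be shared between them. *Cpeb1* (chr7:81347026-81455465), which controls poly(A) tails of stored mRNAs, was tightly grouped at 15.4, 14.8 and 15.8 and then at 59.1 and 49.8 (3.53-fold). The transcription factor *Etv1* (chr12:38779380-38870484) went from 4.14, 7.02 and 6.59 to 29.2 and 22.1, and the X-linked *Efhc2* from 1.40, 1.42 and 2.02 to 12.04 and 12.7. The 578 tested X-linked genes had a median log2 fold change of -0.09, and of 0.03 with replicate 3 as the only E10.5 pool.

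*Kctd14* and *Gm42418* are less certain members of the set. *Kctd14* (chr7:97451323-97459557) was represented by 20 UMIs over the E10.5 pools and by 722 over the E11.5 pools, 13.1 and 16.0 CPM. In cells of the E11.5 gonad outside the gate it stood at 921 and 792 CPM, and how much of it came from gonadal RNA was not tested. The 14 gonadal somatic markers summed to 103, 96 and 100 CPM at E10.5 and to 79 and 117 at E11.5, beside 2317 and 2713 outside the gate. Of the 12 tested, none passed in edgeR, 5 had an unadjusted p under 0.05 and DESeq2 called 1 lower, and the median log2 fold change was 0.79. The 5 higher without overlap (15.7% of all genes tested) included *Amhr2*, at 0, 0.0323 and 0.311 CPM and then 1.21 and 4.32, and *Lhx9*, at 0.0351, 0.453 and 0.249 and then 1.01 and 3.92. Another 2 were lower without overlap (17.1% of all genes tested). Of the 12, 7 had a positive and 5 a negative log2 fold change, and the values ran from -4.66 to 4.53. The markers at 0 numbered 6, 3 and 2 in the E10.5 pools and 1 in each E11.5 pool. *Gm42418* (chr17:39846958-39848788), which overlaps a ribosomal RNA repeat, changed least, from 998, 1231 and 1087 to 1745 and 1613 CPM (1.51-fold).

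Among the 24 lower genes, *Ldha* had the lowest adjusted p of the whole comparison. This gene (chr7:46841475-46855627) encodes the lactate dehydrogenase subunit that converts pyruvate to lactate. It was at 433, 412 and 402 CPM in the E10.5 pools and at 95.7 and 117 at E11.5, so the groups were far apart and each was tight. The fall was 3.92-fold (log2 fold change -1.97, SE 0.16, edgeR adjusted p = 0.00111). At E9.5 it had stood at 561 and 584, and at E12.5 it was down to 46.1 and 48.3. The BVSC-negative E11.5 cells held 682 and 900 CPM, more than the germ cells of either time-point.

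Glycolysis contributed 3 further genes to the falling set. *Tpi1* (chr6:124810586-124814296), triose phosphate isomerase, went from 309, 320 and 372 CPM to 150 and 184 (2.01-fold lower, edgeR adjusted p = 0.0411). The glucose transporters *Slc2a1* (chr4:119108711-119137983) and *Slc2a3* (chr6:122727809-122801640) went from 187, 156 and 193 to 80.7 and 82.2, and from 249, 209 and 254 to 126 and 105. The lactate exporter *Slc16a3* (chr11:120948480-120960868), not on the list, fell 4.51-fold from 30.5, 30.8 and 30.4 to 5.01 and 8.56. Of 17 listed glycolytic genes, all tested, 4 fell, none rose and 13 did not pass. The list had a median log2 fold change of -0.35, and 11 members were lower in both E11.5 pools than in every E10.5 pool (17.1% of all genes tested). Among those that did not pass, *Pfkl* had a log2 fold change of -1.05 (edgeR adjusted p = 0.081), while *Pgk1*, *Eno1*, *Pkm* and *Aldoa* lay between -0.39 and -0.28. Thus the called members were the 2 transporters, *Tpi1* and *Ldha*. *Hk2*, hexokinase, stood at 123, 88.1 and 30.5 at E10.5 and at 81.7 and 77.8 at E11.5 and turned sign between E10.5 pools, with a log2 fold change of -0.42 without replicate 3 and 1.40 with replicate 3 alone. *Ldhb*, the other lactate dehydrogenase subunit, had a log2 fold change of 0.17. The 61 tested genes of oxidative phosphorylation had a median of -0.08 with no edgeR or DESeq2 call and 2 at an unadjusted p under 0.05, and 50 of them had a negative sign.

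**Figure D4:**
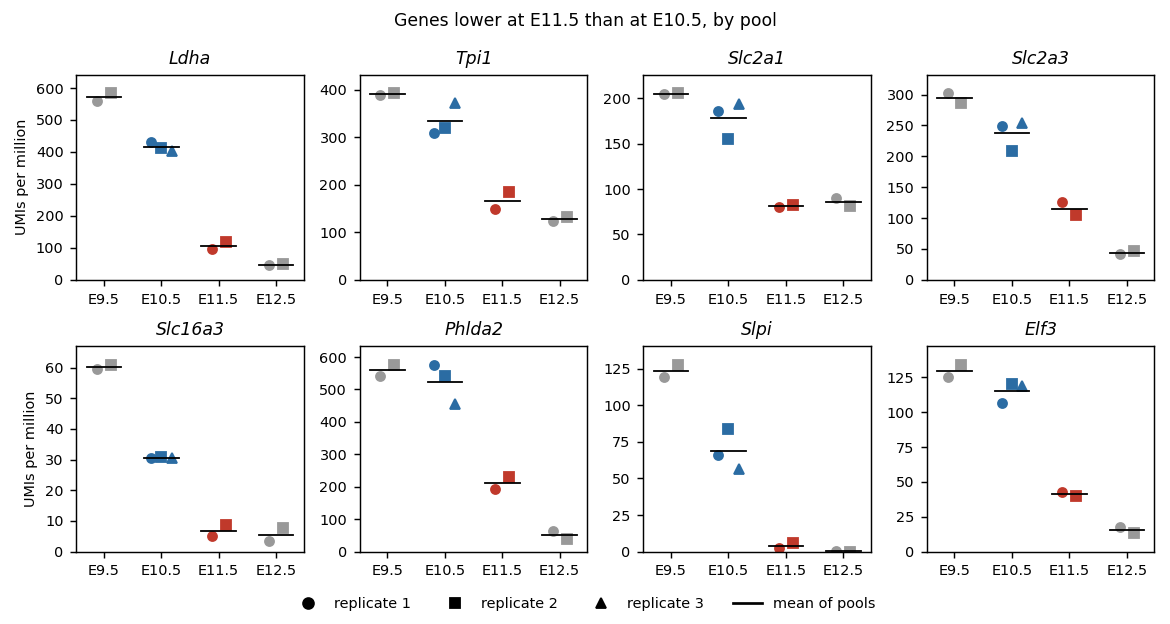
Level in CPM, on axes that start at 0, of 8 genes lower at E11.5, one point for each pool (symbols, replicate number) with the mean of pools as a bar. In every panel the E11.5 pools (red) lie under all E10.5 pools (blue); *Ldha* falls to 95.7 and 117.

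*Slpi* (chr2:164354070-164389095), a secreted protease inhibitor, showed the largest fall of the called genes, from 65.8, 83.5 and 56.8 to 2.67 and 5.61 CPM (16.6-fold, edgeR adjusted p = 0.00435). It had been at 119 and 128 at E9.5 and was at 0.193 and 0 at E12.5. *Phlda2* (chr7:143501545-143503150), an imprinted gene that restrains placental growth, went from 575, 541 and 455 to 193 and 229 (2.50-fold, edgeR adjusted p = 0.018) and on to 63.6 and 37.9 at E12.5. The ETS factor *Elf3* went from 107, 120 and 119 to 42.5 and 39.8. *Porcn* on the X chromosome, which attaches the lipid that Wnt ligands need for secretion, went from 166, 185 and 142 to 65.2 and 75.0. All of these E11.5 values lay under every E10.5 value.

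The tropomyosin gene *Tpm4* was almost identical in the 3 pools of E10.5, at 27.8, 27.5 and 28.1 CPM, and stood at 5.29 and 4.28 at E11.5. *Tpm2* was at 9.09, 5.01 and 11.6 and then at 0.364 and 0.727. The LIM domain genes *Trip6* and *Limd2* fell 4.28-fold and 3.93-fold. *Phgdh*, the first step of serine synthesis, went from 108, 102 and 81.8 to 39.9 and 29.3, and *Igfbp2*, which binds insulin-like growth factors, from 92.7, 99.2 and 147 to 24.0 and 35.4. *Mobp*, first known from myelin, *Clu* (clusterin), *Tagln3*, *Rab4a*, *Vamp8*, *Rcn3*, *Egfl7* and the adhesion molecule *Nectin2* made up the rest, with log2 fold changes between -2.84 and -0.96. *Egfl7* is the one endothelial marker called. Its levels were 83.4, 84.0 and 89.2 against 34.5 and 34.8, while the 10 endothelial markers summed to 119, 132 and 155 at E10.5 and 87 and 89 at E11.5. Mesenchymal markers summed to 52, 37 and 103 at E10.5 and 8 and 13 at E11.5, and 0 of the 10 that were tested passed in edgeR, although 8 had an unadjusted p under 0.05 and DESeq2 called 7 lower. The part of other cells' RNA in these falls was not tested.

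The step was one stretch of a longer course for most called genes. Of the 12 higher genes, 11 had a mean at E12.5 above that at E11.5 and 9 had a mean at E9.5 below that at E10.5. Of the 24 lower genes, 18 were lower still at E12.5 and 17 had been higher at E9.5 than at E10.5. E10.5 replicate 3 stood above replicate 1 in 11 of the 12 higher genes and was the highest E10.5 pool in 8 of them. Replicate 3 was the lowest E10.5 pool in 8 of the 24 lower genes.

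None of the 13 tested early PGC genes passed in edgeR (median log2 fold change -0.31), 4 had an unadjusted p under 0.05 and DESeq2 called 1 lower. Over all genes, 2160 of 15518 had such a p and DESeq2 called 4.78%. Of the list 5 were lower without overlap, beside 17.1% of all genes tested. *Dppa3* was at 913, 824 and 830 CPM at E10.5 and at 736 and 890 at E11.5, and *Prdm1* at 93.4, 89.4 and 81.2 and then 107 and 106 (edgeR adjusted p = 0.591). The specification factor *Tfap2c* was at 296, 275 and 227 and then at 166 and 204, without overlap but without passing (edgeR adjusted p = 0.230). *Kit*, the receptor for the survival signal of migrating cells, had a log2 fold change of 0.46 (edgeR adjusted p = 0.425). Among 22 tested pluripotency factors only *Lefty2* passed in edgeR, while 18 had a positive log2 fold change (median 0.18). An unadjusted p under 0.05 was found for 9 of them, and DESeq2 called 4 higher. Without overlap 7 were higher and 3 lower, beside 15.7% and 17.1% of all genes tested. *Pou5f1* went from 355, 320 and 295 to 253 and 224 (log2 fold change -0.45, edgeR adjusted p = 0.230), while *Sox2* (0.10) and *Nanog* (-0.22) had overlapping pools. *Zfp42* and *Tdgf1* had positive log2 fold changes of 0.58 and 0.86 with no overlap and did not pass.

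Genes of migration and adhesion gave no edgeR call among 22 tested, with a median log2 fold change of 0.01. An unadjusted p under 0.05 was found for 6 of them (2160 of 15518 over all genes), and DESeq2 called 2 lower (4.78% of all genes in either direction). The chemokine receptor *Cxcr4*, which guides PGCs, was low, at 8.07, 12.1 and 14.2 CPM and then 7.92 and 17.4. The adhesion genes *Cdh1*, *Epcam* and *Pecam1* had log2 fold changes of 0.02, 0.05 and -0.12, with overlapping pools. The Wnt5a receptor *Ror2* was lower without overlap, at 34.8, 43.6 and 37.6 against 21.1 and 23.5 (edgeR adjusted p = 0.252).

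The piRNA and meiotic lists share members with the germline list. Of 18 tested piRNA genes 2 were called higher in edgeR, *Ddx4* and *Asz1*, with a median log2 fold change of 0.65. Without overlap 9 were higher, beside 15.7% of all genes tested. An unadjusted p under 0.05 was found for 7 of the 18, and DESeq2 called 4 higher. The figures over all genes were 2160 of 15518 and 4.78%. *Tdrd12* was at 69.5, 66.5 and 65.4 CPM and then at 111 and 109 without passing (edgeR adjusted p = 0.168). Of 19 tested meiotic genes only *Hormad1* passed in edgeR (median 0.49). Without overlap 8 were higher and 4 lower, beside 15.7% and 17.1% of all genes tested. An unadjusted p under 0.05 was found for 8 of the 19, and DESeq2 called 4 higher. *Smc1b*, the meiotic cohesin subunit, was at 66.4, 84.9 and 98.3 and then at 188 and 160 (edgeR adjusted p = 0.074). *Stra8*, the gene that starts meiosis, was not tested for want of UMIs, at 0, 0 and 2.42 at E10.5 and 0 and 0.0404 at E11.5.

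Regulators of DNA methylation gave no edgeR call among 15 tested, with 4 at an unadjusted p under 0.05 and 2 called higher by DESeq2. The figures over all genes were 2160 of 15518 and 4.78%. *Tet1*, which oxidises 5-methylcytosine, was at 267, 324 and 196 CPM and then at 399 and 329 (log2 fold change 0.46, edgeR adjusted p = 0.316). *Uhrf1*, which brings the maintenance methyltransferase to replicating DNA, was at 21.1, 14.1 and 26.5 and then at 20.04 and 10.4, beside 142 and 93 outside the gate. *Dnmt1* was at 255, 233 and 175 and then at 335 and 225, with overlap. *Dnmt3b* stood at 2.95 and 2.04 in E10.5 replicates 1 and 2 but at 14.8 in replicate 3, and at 2.63 and 2.10 at E11.5, so that its call with replicate 3 alone rests on that pool.

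Imprinted genes had a median log2 fold change of -0.59 over 23 tested, with *Phlda2* the one called in edgeR and 10 lower without overlap (17.1% of all genes tested). An unadjusted p under 0.05 was found for 12 of the 23, and DESeq2 called 7 lower. The figures over all genes were 2160 of 15518 and 4.78%. *Meg3* was at 38.6, 57.7 and 42.0 CPM and then at 15.7 and 6.501, *Nnat* at 32.8, 13.1 and 17.6 and then at 2.02 and 4.12, and *Grb10* at 21.1, 13.55 and 41.2 and then at 3.96 and 4.32, each with an edgeR adjusted p of 0.074. *H19* was at 26.8 and 43.9 in replicates 1 and 2, at 165 in replicate 3 and at 19.8 and 21.3 at E11.5. The imprinted genes called lower numbered 3 without replicate 3 and 7 with it as the only E10.5 pool. Several imprinted genes were far higher outside the gate, *H19* at 438 and 446 and *Nnat* at 280 and 133.

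Cell cycle genes showed no call in edgeR. The 43 genes of G1/S had a median log2 fold change of 0.01 and the 53 genes of G2/M one of 0.19, with 42 of the 53 positive and 18 higher without overlap (15.7% of all genes tested). With replicate 3 as the only E10.5 pool 5 genes of G2/M were called higher, *Mki67* among them. An unadjusted p under 0.05 was found for 7 genes of G1/S and 11 of G2/M, and DESeq2 called 2 of the former higher and none of the latter. For these and the lists that follow, the figures over all genes were 2160 of 15518 and 4.78%. *Mki67*, the proliferation antigen, had a log2 fold change of 0.62 (edgeR adjusted p = 0.259). The 14 cyclin-dependent kinase inhibitors, D cyclins and related genes had a median of -0.17, with 5 at an unadjusted p under 0.05 and 1 called lower by DESeq2. The 10 tested *Rhox* genes had a median of -0.06 with no call by either tool and 0 at an unadjusted p under 0.05. Of the 26 tested genes of retinoic acid, Nodal, BMP and Notch signalling, *Lefty2* alone passed in edgeR (median 0.25). Of these 26, 9 had an unadjusted p under 0.05, and DESeq2 called 4 higher and 2 lower. Without overlap 8 were higher and 5 lower, beside 15.7% and 17.1% of all genes tested. Of 20 early response and stress genes none passed in edgeR (median 0.26), although 5 had an unadjusted p under 0.05 and DESeq2 called 2 lower.

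**Figure D5:**
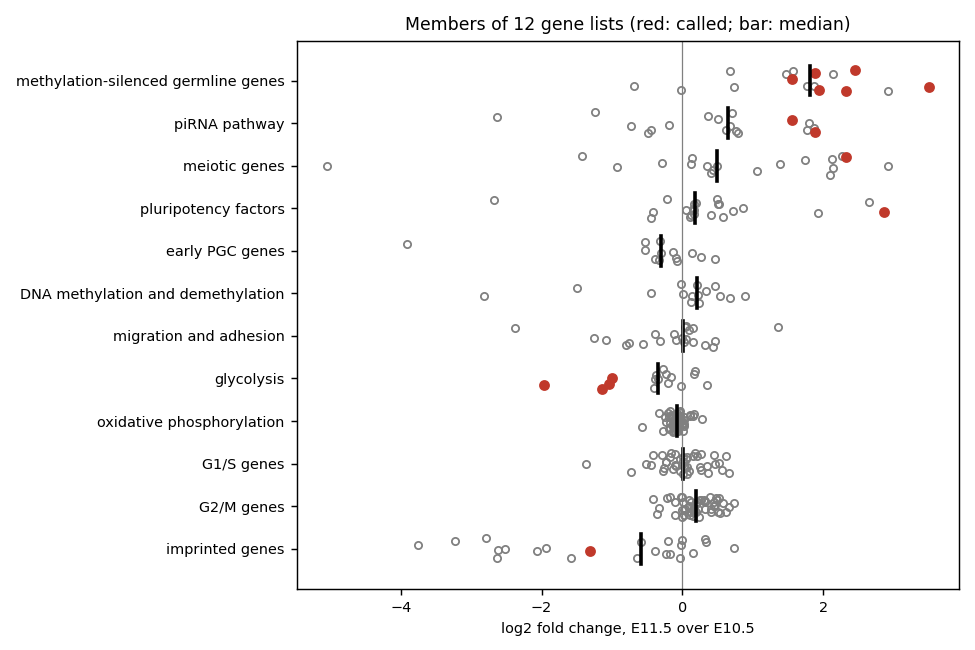
Log2 fold change of E11.5 over E10.5 for each tested member of 12 gene lists, with called genes in red, all others in grey and the list median as a black bar. The germline list has the highest median, 1.82, the 6 called germline genes lie between 1.56 and 3.51, and *Ldha* is the lowest glycolytic gene at -1.97.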

How the data were processed

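Single-cell libraries were made with a modified STRT-seq protocol in which the 3′ ends of transcripts were counted by UMI. The values are counts of UMIs per gene and cell, deposited by the authors without normalization; per the study's methods and the submitters' processing notes, reads were handled with CASAVA, UMI-tools, STAR and featureCounts on mm10. Time-point, genotype, gate, sex and replicate came from the deposited cell names, since the library labels gave no condition. In all, 11984 columns of cells were not used.

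UMIs were summed per time-point and replicate, and 3 pools of E10.5 were compared with 2 of E11.5 by the quasi-likelihood test of edgeR 4.0.16 (R 4.3.3), with TMM scaling and its default filter on low counts, and p-values were adjusted by Benjamini-Hochberg over the 15518 genes kept (threshold 0.05). The script was tested on simulated data. Levels (CPM) are UMIs per 1000000 UMIs of the pool. Single pool values were compared by exact permutation tests, two-sided. Gene coordinates are those of GENCODE release M21 (GRCm38), which placed 98.1% of the 31053 genes on a single chromosome by symbol. Promoters of only 75% of higher and 79.2% of lower genes were in the RefSeq table, so no share is given for those sets. Alternatives included DESeq2 1.42.0 and limma 3.58.1. E13.5 pools were not used here.

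The named genes were those the study names for migrating or mitotic PGCs, members of the lists, and up to 12 largest rises and falls past the threshold with a mean log2 level of at least 5 and no overlap. The remaining called genes were named after their values were seen. Members, lists and tests were chosen with earlier results of these data known. A few items among the named genes are not reported here.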

Additional observations from a re-analysis of the deposited data

How the results depend on the processing

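The number of called genes depended strongly on the setting (36 in all, 12 higher and 24 lower). It was 4 (1 and 3) with scaling by library total only, 698 (245 and 453) with DESeq2, 71 (37 higher) with limma-voom, 633 (279 and 354) for genes with at least 1 UMI, 101 (30 and 71) at 5 CPM in 2 pools, 102 (32 and 70) with cells thinned to 50000 UMIs and 178 (62 and 116) with pools of E9.5 to E12.5 in 1 fit. Cells with a Y-linked UMI, which at E10.5 are not shown to be male, gave 3 (0 and 3). A false discovery rate of 0.01 gave 2 (0 and 2). Taking only male-labelled pools, an alternative chosen after seeing the data, gave 599 (274 and 325). Leaving out 1 pool gave 0 to 98 (0 to 43 higher, 0 to 55 lower), where a lone E11.5 pool was assumed to vary like the E10.5 pools: 15 without E10.5 replicate 1, 3 without replicate 2, 98 without replicate 3, 0 without E11.5 replicate 1 and 2 without E11.5 replicate 2. The cause was not tested.

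Germline genes called higher (6) numbered 1 with the library total, 11 with at least 1 UMI, 0 in cells with a Y-linked UMI, 0 at 0.01 and 0 to 9 when 1 pool was left out. Glycolytic genes called lower (4) numbered 1 with the library total, 1 in cells with a Y-linked UMI, 1 at 0.01 and 0 to 4 when 1 pool was left out. The differences in the share of cells for *Dazl* and *Ddx4* kept their sign under every setting run, from 59.5 to 77.5 and from 27.8 to 41.5 percentage points when 1 pool was left out. None of the 36 called genes changed sign under any of these alternatives.

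Replicate numbers are shared by 2 pairs of pools, whose deviations did not go together (correlation -0.005), so they were not treated as pairs. A replicate block gave 530 calls (261 and 269) and 12 higher germline genes. *Hesx1*, at 0, 0 and 12.7 CPM at E10.5 and 0.646 and 0.969 at E11.5, turned from a log2 fold change of -2.39 to 7.53 with the replicate block. With 3 against 2 pools the exact permutation test cannot go below 0.1.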

Other observations

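Beyond the 36 called genes, others passed both without E10.5 replicate 3 and with it as the only E10.5 pool, in the same direction, and they were singled out after their values were seen. The homeobox gene *Lhx1*, known in the kidney and in spermatogonial stem cells, was at 2.46, 5.89 and 25.1 CPM at E10.5 and at 119 and 60.0 at E11.5, and at 178 and 208 at E12.5. It did not pass with all 5 pools (edgeR adjusted p = 0.114). *Rpl39l*, a copy of a ribosomal protein gene as *Rpl10l* is, was at 83.1, 142 and 252 and then at 394 and 432 (edgeR adjusted p = 0.116). In both, replicate 3 was the highest E10.5 pool and lay below both E11.5 pools.

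Others of these genes were lower at E11.5 in both fits. *Ins2*, an insulin gene, was at 90.8, 50.9 and 43.0 CPM and then at 12.8 and 17.5, and *Trh*, the precursor of thyrotropin-releasing hormone, at 76.8, 88.5 and 199 and then at 29.7 and 29.2. Both had an edgeR adjusted p of 0.073 with all pools. Cells outside the gate held 1.36 and 1.26 CPM of *Ins2* and 2.05 and 2.02 of *Trh*. The histone gene *Hist1h2bm* was at 20.8, 23.3 and 20.7 and then at 2.67 and 5.81 (edgeR adjusted p = 0.068).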
